A study of Mus musculus with 12 samples.

Results

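Interferon-stimulated genes were examined in whole tibialis anterior muscle, a muscle along the shin, taken 5 days after an injection of glycerol, an injury that is followed by fat formation in mouse muscle. The 34 genes were chosen by name, as textbook targets of interferon with roles in sensing, transcription, translation arrest and viral restriction. The choice was made with earlier results of these data known. The rows of the 34 genes were taken by gene symbol from a table of 54532 genes. All 34 were found and all 34 passed the filter on low counts, which left 16393 genes for testing. The 6 knockout libraries came from muscle labelled "FAP no ppary", read here as a loss of PPARγ, the transcription factor that drives fat cell formation, from fibro-adipogenic progenitors (FAPs), the mesenchymal cells that form fat in injured muscle. The 6 control libraries were labelled Wildtype. Both groups carried the strain label 129svlmJ and the same glycerol treatment, and no uninjured muscle was analysed here. The labels do not state the driver of the deletion, the age of the mice or whether each library came from its own animal, and the p-values therefore measure the spread between libraries, which may be partly technical. RNA was selected by poly-T beads and sequenced, so each value is an amount of polyadenylated transcript in a lysate of all cell types of the muscle.

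Interferons are secreted proteins that bind receptors on nearly every cell type. Type I and type III interferons act through the kinases Jak1 and Tyk2 to form a complex that holds Stat2 and Irf9 and binds the interferon-stimulated response element (ISRE), whereas many targets of interferon gamma are controlled through another element, the gamma-activated site (GAS). The induced proteins detect viral RNA, stop translation, degrade RNA and trap virus particles, and several of them (Stat2, Irf9, Irf7) feed back to amplify the response, while Usp18 dampens it.

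The response element was read in the promoters of these genes, and 5 stretches are printed because they show the letters that several members share. RefSeq promoter windows on GRCm38.p6, from 250 bases before to 50 bases after a gene's start, were matched by symbol for 25 of the 34 genes, and the other 9 are Dhx58, Ifi27, Mx1, Mx2, Oas2, Parp14, Rtp4, Usp18 and Zbp1. The ISRE core was searched as GAAA, then NN, then GAAA on both strands, and the GAS as TTCNNNGAA, which reads the same on both strands. At least 1 ISRE core lay in the windows of 12 of the 25 genes (48.0%: Bst2, Ddx58, Eif2ak2, Gbp2, Gbp3, Ifih1, Ifit1, Ifit3, Isg15, Oas3, Rsad2 and Stat2), against 3.99% of all 27025 genes with a window. The GAS letters lay in 7 of the 25 (28.0%: Bst2, Eif2ak2, Ifi35, Ifit2, Irf1, Irf8 and Samhd1), against 9.55% of all genes with a window. In Bst2 an ISRE match overlapped the GAS match. A match describes letters in these windows only. Each stretch below is the 170 bases before the start, written 5′ to 3′ along the gene's own strand, with the match in capitals (the ISRE core, or its reverse complement, in the first 4 and the GAS in Irf1).
Isg15: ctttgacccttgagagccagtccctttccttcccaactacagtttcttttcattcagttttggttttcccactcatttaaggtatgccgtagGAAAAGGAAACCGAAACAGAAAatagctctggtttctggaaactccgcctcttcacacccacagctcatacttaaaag
Ifit1: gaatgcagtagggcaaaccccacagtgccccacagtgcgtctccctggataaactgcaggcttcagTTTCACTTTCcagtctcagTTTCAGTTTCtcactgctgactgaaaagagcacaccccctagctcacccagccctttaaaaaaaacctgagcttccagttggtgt
Ifit3: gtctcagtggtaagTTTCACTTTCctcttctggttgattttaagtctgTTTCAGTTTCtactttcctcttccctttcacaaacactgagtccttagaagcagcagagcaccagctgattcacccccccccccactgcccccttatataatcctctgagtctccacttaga
Rsad2: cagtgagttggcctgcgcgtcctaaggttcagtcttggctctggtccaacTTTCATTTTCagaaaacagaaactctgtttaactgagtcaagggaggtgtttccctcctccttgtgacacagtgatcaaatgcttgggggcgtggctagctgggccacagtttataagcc
Irf1: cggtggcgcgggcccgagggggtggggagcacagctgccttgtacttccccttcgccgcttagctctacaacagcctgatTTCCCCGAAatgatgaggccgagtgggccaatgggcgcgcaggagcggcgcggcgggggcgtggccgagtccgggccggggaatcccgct
On GRCm38 these stretches are chr4:156200819-156200988 (minus strand) for Isg15, chr19:34640719-34640888 (plus strand) for Ifit1, chr19:34583359-34583528 (plus strand) for Ifit3, chr12:26456453-26456622 (minus strand) for Rsad2 and chr11:53769844-53770013 (plus strand) for Irf1. Isg15 held 3 overlapping ISRE cores, Ifit1 and Ifit3 held 2 each, and Rsad2 held 1.

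The libraries held 15716056 to 29790720 assigned reads in the knockout group and 17983299 to 25613732 in the control group. Each count was divided by its TMM-scaled library size, giving CPM, the standard per-library share of reads, which is used for comparisons between libraries. Pparg, the targeted gene, had 15.6, 23.2 and 43.1 CPM in knockout libraries (lowest, median and highest), against 44.96, 56.3 and 67.4 CPM in control libraries. The groups did not overlap, and its log2 fold change stood at -1.12 (SE 0.21, edgeR quasi-likelihood test, Benjamini-Hochberg adjusted p = 0.0299). Leaving out 1 library at a time kept the direction, but the edgeR adjusted p rose above 0.05 in 8 of 12 such fits. It stayed under 0.05 only in those without knockout 1, 2 or 5 or control 3. Pparg was thus lower but present in the whole lysate, which also holds cells other than FAPs. Markers of muscle fibres summed to 15668 to 48739 CPM in knockout and 18316 to 39807 CPM in control libraries, as fits the tissue label, and Xist was above 0 and Uty was at 0 in all 12 libraries. Reads mapped to mitochondrial genes made up 2.66% to 8.89% of counts in knockout and 3.06% to 10.8% in control libraries.

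The first question was whether interferon-stimulated genes differed between knockout and control muscle. None of the 34 passed the test in either direction (edgeR quasi-likelihood test, Benjamini-Hochberg adjusted p under 0.05), against a background of 0.799% of all tested genes called in either direction, 0.0488% higher and 0.75% lower. At an unadjusted p under 0.05, 2 of 34 (5.88%) were called, Trim25 and Oasl1, both higher in knockout muscle, against 9.47% of all genes in either direction, 3.79% higher and 5.68% lower. DESeq2 called 1 member, Trim25 (adjusted p = 0.0281), and limma-voom, run with sample quality weights, called none. Log2 fold changes ran from -0.27 for Ifi27 to 0.65 for Rsad2, with a median of 0.11 over the 34 genes and -0.0013 over all tested genes. The fold change was positive for 21 of 34 (61.8%), against 49.5% of all genes. The groups overlapped for all 34, against 1.43% of all genes whose groups did not overlap.

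The intervals show what sizes of change these 12 libraries could not tell apart. For 25 of 34 genes the 95% interval of the log2 fold change lay between -1 and 1, so neither a log2 change of 1 nor one of -1 lay inside it. For the other 9 the interval reached above 1, the highest bound being 1.34 for Rsad2, and none reached below -1, the lowest bound being -0.87 for Xaf1. In whole muscle, fewer cells of a type and less transcript per cell cannot be told apart in any of these values.

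**Figure D1:**
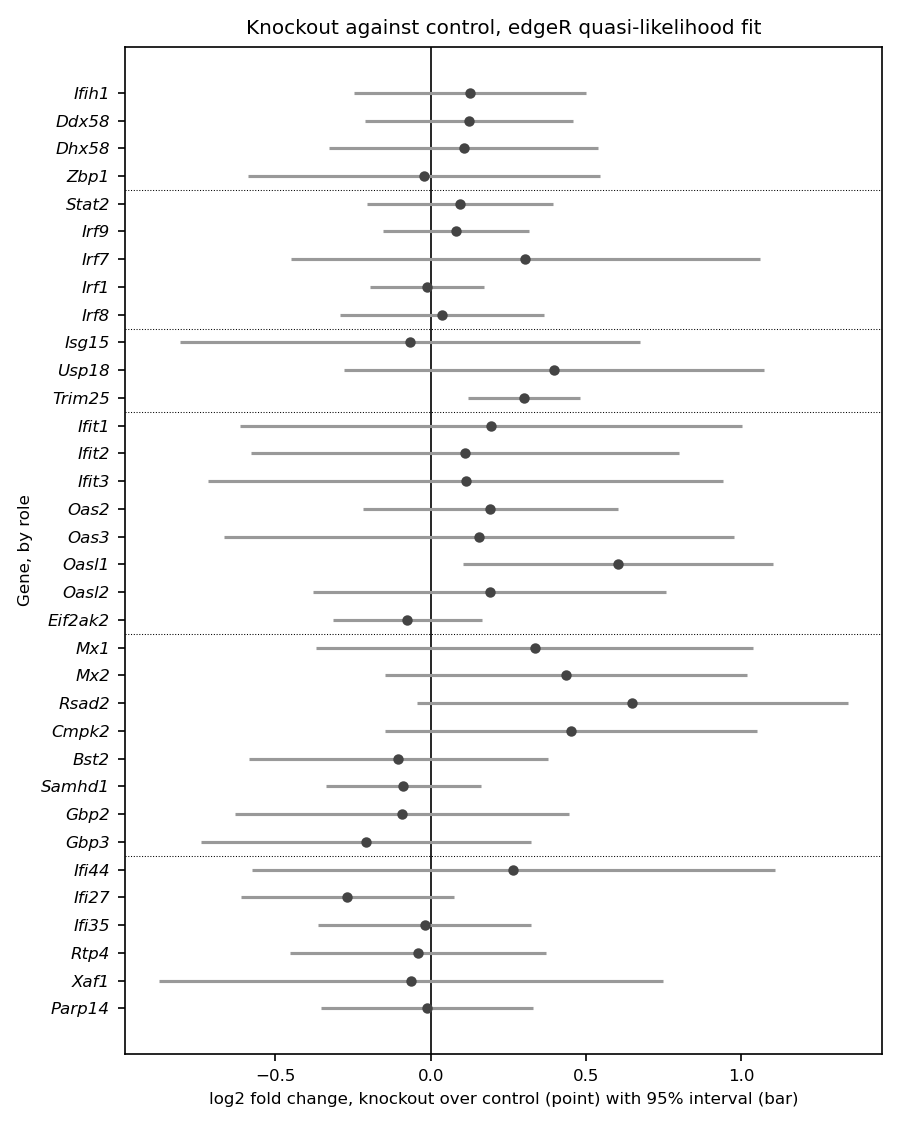
Log2 fold change of each of the 34 genes, knockout over control (horizontal axis), genes grouped by role (vertical axis). Bars are approximate 95% intervals computed from the F statistic of the edgeR quasi-likelihood test. The intervals of Trim25 and Oasl1 exclude 0, and the values run from -0.27 for Ifi27 to 0.65 for Rsad2.

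The cytosolic sensors include the helicases Ddx58 (RIG-I) and Ifih1 (MDA5), which bind viral double-stranded RNA, their regulator Dhx58 (LGP2), and Zbp1, which binds Z-form nucleic acid and can start necroptosis. None of the 4 passed the test, and their median log2 fold change was 0.12. Ddx58 had 54.4, 58.9 and 67.1 CPM in knockout libraries (lowest, median and highest), against 41.7, 45.5 and 77.3 CPM in control libraries. All 6 knockout values lay above 4 of the controls and below the other 2, controls 3 and 4. Ddx58 had a log2 fold change of 0.12 (SE 0.16, edgeR quasi-likelihood adjusted p = 0.923). Ifih1 had the same arrangement, at 29.2, 35.4 and 41.7 CPM in knockout libraries and 24.9, 27.2 and 46.1 CPM in control libraries. Zbp1 had 23.4, 34.3 and 36.6 CPM in knockout libraries and 16.9, 27.5 and 58.6 CPM in control libraries, with controls 3 and 4 again above every knockout library. Dhx58 averaged 28.6 ± 4.66 CPM in knockout libraries and 26.5 ± 9.52 CPM in controls (SD, n = 6 each), a log2 fold change of 0.11.

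Among the transcription factors, Stat2 and Irf9 belong to the ISRE-binding complex, Irf7 amplifies type I interferon production, Irf1 is an early interferon gamma target and Irf8 is a lineage factor of macrophages and dendritic cells. None of the 5 passed the test, with a median log2 fold change of 0.081. Irf7 had 94.98, 159 and 220.1 CPM in knockout libraries and 64.5, 112 and 269 CPM in control libraries. Its highest value was control 3, at 269 CPM, and knockout libraries 1 and 2 came next at 220.1 and 215 CPM. The log2 fold change of Irf7 was 0.30 (SE 0.35, edgeR quasi-likelihood adjusted p = 0.914). Irf7 overlaps Phrf1 on the opposite strand, and the labels and files do not state whether counting used strand, so some of its reads may belong to Phrf1. Stat2 averaged 74.7 ± 4.24 CPM in knockout libraries and 69.9 ± 18.7 CPM in controls, and Irf9 averaged 56.8 ± 3.98 CPM in knockout libraries and 53.7 ± 10.4 CPM in controls (SD, n = 6 each). For both genes all 6 knockout values lay above 4 controls and below controls 3 and 4. Irf9 also overlaps Rnf31 on the same strand, so its counts are uncertain in that stretch. Irf1 averaged 46.4 ± 4.35 CPM in knockout libraries and 46.8 ± 5.38 CPM in controls. Irf8 averaged 90.0 ± 27.1 CPM in knockout libraries and 87.8 ± 7.78 CPM in controls, and here knockout library 2, at 142 CPM, was the highest of all 12.

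The ISG15 system attaches a ubiquitin-like protein, Isg15, to other proteins, with Usp18 removing it and Trim25, a ubiquitin ligase, acting on RIG-I. Trim25 had 104, 114 and 127 CPM in knockout libraries (lowest, median and highest), against 84.2, 88.8 and 108 CPM in control libraries. All 6 knockout libraries lay above 4 of the controls, and controls 3 and 4 fell within the knockout range. Its log2 fold change of 0.30 (SE 0.084) had the smallest p of the 34 genes (edgeR quasi-likelihood test, Benjamini-Hochberg adjusted p = 0.138). Isg15 had 25.6, 34.9 and 41.0 CPM in knockout libraries and 12.8, 28.2 and 70.7 CPM in control libraries, a log2 fold change of -0.067 (SE 0.34, edgeR adjusted p = 0.992). Its knockout values thus lay inside the span of the controls, with controls 3 and 4 above and controls 1 and 6 below them all. Usp18 averaged 24.2 ± 5.96 CPM in knockout libraries and 18.4 ± 10.2 CPM in controls (SD, n = 6 each), with all 6 knockout libraries above 4 of the controls.

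The effectors on RNA and translation are the Ifit proteins, which bind foreign RNA ends, the 2′-5′ oligoadenylate synthetases and their relatives (Oas2, Oas3, Oasl1, Oasl2), which activate RNase L or act on other sensors, and Eif2ak2 (PKR), the kinase that stops translation. None of the 8 passed the test, 7 of 8 had a positive log2 fold change, and the median was 0.17. Oasl1 had 19.6, 21.98 and 26.3 CPM in knockout libraries (lowest, median and highest), against 9.54, 11.3 and 26.5 CPM in control libraries. All 6 knockout libraries lay above 5 of the 6 controls, and control 3, at 26.5 CPM, lay above every knockout library. Its log2 fold change was 0.60 (SE 0.23, edgeR quasi-likelihood adjusted p = 0.373). Without control 3 the log2 fold change was 0.86 and the edgeR adjusted p was 0.0480, so this call rests on whether that library is counted.

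Ifit3 had 37.7, 58.2 and 103 CPM in knockout libraries and 22.9, 38.8 and 113 CPM in control libraries. Its log2 fold change was 0.11 (SE 0.38, edgeR adjusted p = 0.983). Ifit3 shares 51.2% of its 50-base words with its paralog Ifit3b, so its level is uncertain where reads could be split between them. Ifit1 averaged 39.0 ± 14.2 CPM in knockout libraries and 34.01 ± 21.5 CPM in controls, and Ifit2 averaged 58.0 ± 14.8 CPM in knockout libraries and 53.7 ± 29.9 CPM in controls (SD, n = 6 each). The Ifit genes differed between groups by less than their spread within either group. Oas3 had 19.2, 24.5 and 42.0 CPM in knockout libraries and 10.5, 18.01 and 55.3 CPM in control libraries, and its highest values were control 3 and knockout 1, at 55.3 and 42.0 CPM. Oas2 averaged 74.3 ± 11.2 CPM in knockout libraries and 65.0 ± 23.4 CPM in controls, and Oasl2 averaged 97.4 ± 16.5 CPM in knockout libraries and 85.4 ± 41.6 CPM in controls. For both, all 6 knockout libraries lay above 4 of the controls. Eif2ak2 averaged 41.2 ± 3.50 CPM in knockout libraries and 43.5 ± 8.07 CPM in controls, a log2 fold change of -0.075.

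The restriction factors act on viruses themselves: the GTPases Mx1 and Mx2 block viral ribonucleoproteins, Rsad2 (viperin) makes a chain-terminating nucleotide, with Cmpk2 as the kinase encoded beside it, Bst2 (tetherin) holds virus particles at the membrane, Samhd1 hydrolyses nucleotides, and Gbp2 and Gbp3 are GTPases that act on pathogen-containing vacuoles. None of the 8 passed the test, 4 had a positive and 4 a negative log2 fold change, and the median was 0.12. Rsad2 had 18.9, 26.7 and 38.2 CPM in knockout libraries (lowest, median and highest), against 8.53, 13.2 and 35.1 CPM in control libraries. The 6 knockout libraries lay above 4 of the controls, with controls 3 and 4 at 25.1 and 35.1 CPM inside the knockout range. Its log2 fold change was 0.65 (SE 0.32, edgeR quasi-likelihood adjusted p = 0.574). Cmpk2 averaged 23.5 ± 3.94 CPM in knockout libraries and 17.2 ± 9.02 CPM in controls, a log2 fold change of 0.45. Mx1 averaged 36.7 ± 12.4 CPM in knockout libraries and 29.1 ± 15.2 CPM in controls, and Mx2 averaged 15.2 ± 2.76 CPM in knockout libraries and 11.2 ± 5.41 CPM in controls (SD, n = 6 each).

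Bst2 had 84.8, 119.6 and 163 CPM in knockout libraries and 90.7, 122 and 221 CPM in control libraries. Control 3 alone, at 221 CPM, lay above every knockout library, and the log2 fold change was -0.10 (SE 0.22, edgeR adjusted p = 0.966). Samhd1 averaged 176 ± 29.0 CPM in knockout libraries and 187 ± 24.0 CPM in controls, and both groups spanned nearly the same values. Gbp2 averaged 34.9 ± 10.3 CPM in knockout libraries and 37.2 ± 12.4 CPM in controls, and Gbp3 averaged 37.0 ± 8.92 CPM in knockout libraries and 42.8 ± 17.2 CPM in controls (SD, n = 6 each), with log2 fold changes of -0.091 and -0.21.

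The remaining 6 genes are Ifi27, a small mitochondrial and nuclear membrane protein, Ifi35, Ifi44, Rtp4, a chaperone of receptors, Xaf1, a pro-apoptotic partner of XIAP, and Parp14, an ADP-ribosyltransferase. None passed the test, and 5 of 6 had a negative log2 fold change, with a median of -0.030. Ifi27 had 110.2, 159.8 and 194 CPM in knockout libraries (lowest, median and highest), against 129.6, 200.4 and 242 CPM in control libraries. All 6 knockout values lay below the control median, yet 3 of the controls fell inside the knockout range, and the log2 fold change was -0.27 (SE 0.16, edgeR adjusted p = 0.688). Ifi44 had 23.3, 37.2 and 47.9 CPM in knockout libraries and 9.03, 28.5 and 63.9 CPM in control libraries. Among the knockouts, libraries 1 and 2 held 24.9 and 23.3 CPM of Ifi44 and the other 4 held 35.8 to 47.9 CPM. Xaf1 ran the opposite way, with 78.0 and 63.1 CPM in knockout libraries 1 and 2 and 27.6 to 32.0 CPM in the other 4. Parp14 averaged 90.2 ± 10.6 CPM in knockout libraries and 90.9 ± 26.3 CPM in controls, Ifi35 averaged 31.7 ± 4.73 CPM in knockout libraries and 32.1 ± 8.63 CPM in controls, and Rtp4 averaged 61.6 ± 8.99 CPM in knockout libraries and 63.4 ± 21.5 CPM in controls (SD, n = 6 each). Rtp4 overlaps Masp1 on the opposite strand and Gm45338 on the same strand. It shares 13.65% of its 50-base words with Gm45338, so its counts are uncertain in these stretches.

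For most of the 34 genes the values varied more among control libraries than among knockout libraries. The median SD of log2 CPM over the 34 genes was 0.25 among knockout libraries and 0.56 among control libraries, where all tested genes had medians of 0.24 in knockout and 0.21 in control libraries. The SD was larger in controls for 32 of 34 genes, all but Irf8 and Samhd1, against 39.9% of all tested genes. The highest control exceeded the lowest control by a median of 2.71-fold and by up to 7.08-fold, while in knockout libraries the median was 1.62-fold and the highest 2.83-fold. For 23 of the 34 genes all knockout values fell inside the range of the controls. Leaving out any 1 library left 30 to 33 of 34 genes with the larger SD in controls, the lowest counts being without control 3 or control 6. The genes share libraries and were high and low in the same libraries, so these counts describe 12 libraries and carry no p.

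**Figure D2:**
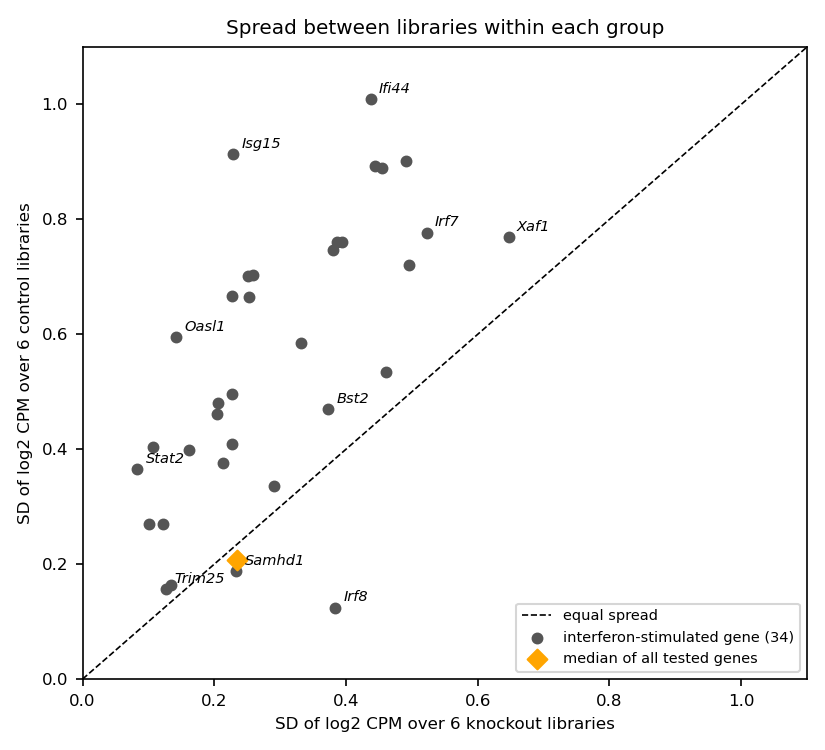
SD of log2 CPM among the 6 knockout libraries (horizontal axis) and among the 6 control libraries (vertical axis), 1 point for each of the 34 genes, with the line of equal spread and the median of all tested genes. The medians are 0.25 in knockout and 0.56 in control libraries, and 32 of 34 genes have the larger SD in controls.

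The same few libraries stood at the ends for most of these genes. Control 3 or control 4 was the highest control for 32 of 34 genes (19 and 13), against 28.7% of all tested genes, and control 1 or control 6 was the lowest for 31 of 34 (7 and 24), against 37.2%. In the knockout group, library 1 or 2 was the highest knockout for 28 of 34 genes, against 31.9%, and library 6 was the lowest for 22 of 34, against 24.8%. Relative to the mean of the controls on the log2 scale, the median deviation over the 34 genes was 0.34, 0.37, 0.21, 0.14, -0.0033 and -0.079 in knockout libraries 1 to 6. In control libraries 1 to 6 it was -0.31, -0.070, 0.72, 0.51, -0.22 and -0.62. By this median controls 3 and 4 lay above all knockouts, and controls 1, 5 and 6 lay below all of them. Knockout 6 and control 6, the libraries most often lowest, also had low summed muscle fibre markers, at 15668 and 18718 CPM, as had control 2 at 18316 CPM, where the other knockout libraries had 31271 to 48739 CPM and the other controls 37566 to 39807 CPM. Controls 1 and 3, at opposite ends for the 34 genes, had 39807 and 37735 CPM, and the part of fibre content in these orders was not tested. The median deviation of all genes stayed within 0.014 of 0 in each library.

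The roles differed in the size of this spread. The median SD of log2 CPM was 0.31 in knockout and 0.71 in control libraries for the RNA and translation effectors, 0.23 and 0.75 for the ISG15 system, 0.35 and 0.64 for the restriction factors, 0.23 and 0.45 for the sensors, 0.25 and 0.44 for the other induced genes, and 0.13 and 0.27 for the transcription factors. The 34 genes together took 0.182% to 0.250% of all counts in knockout libraries and 0.148% to 0.277% in control libraries. Genes with and without an ISRE core in the promoter window had nearly the same median range of log2 CPM over the 12 libraries, 1.45 and 1.46. The 7 genes with the GAS letters had a median range of 1.01 (0.44 to 1.73), and the 18 without had 1.78 (0.58 to 2.81). These spans overlapped, and the difference was not tested. Members without a promoter window are in neither group.

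**Figure D3:**
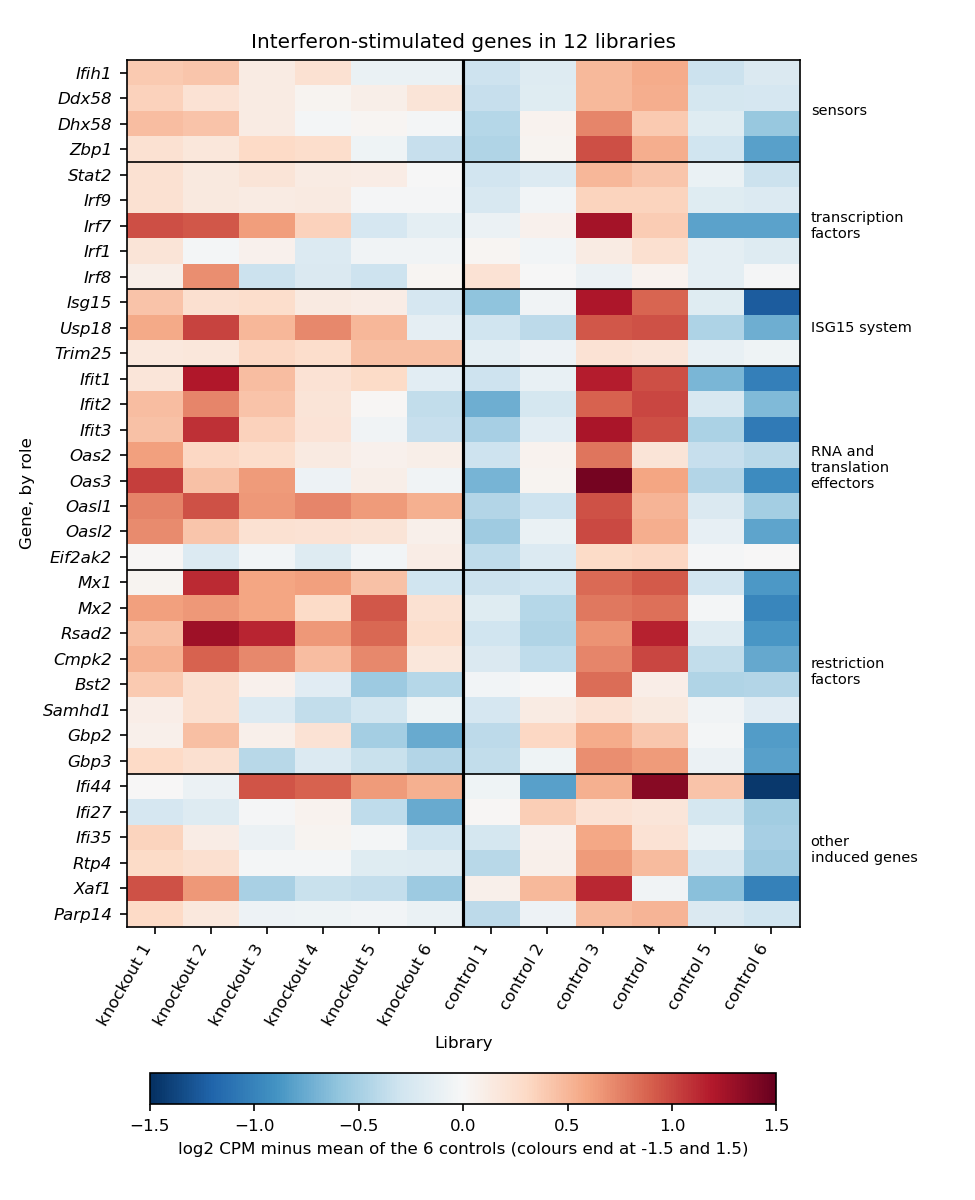
Log2 CPM of each of the 34 genes (rows, grouped by role) in each of the 12 libraries (columns, knockout left of control), as the difference from the mean of the control libraries. Controls 3 and 4 are high and controls 1 and 6 are low across most rows, with median deviations of 0.72, 0.51, -0.31 and -0.62.

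Per transcript length, on the authors' FPKM scale, the levels spanned a wide range. Bst2 and Ifi27 were the highest, with means over the 12 libraries of 138 and 118 FPKM, followed by Isg15 at 46.0, Irf7 at 37.6, Ifit3 at 33.6 and Rtp4 at 29.0 FPKM. The median gene had 11.9 FPKM. The lowest were Oas3 at 3.58, Mx2 at 3.62, Ifih1 at 4.11 and Cmpk2 at 4.85 FPKM, and these 4 were the only members with a mean below 5 FPKM. Bst2 and Ifi27 overlapped across the 12 libraries, at 92.9 to 242 FPKM for Bst2 and 74.97 to 163 FPKM for Ifi27.

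**Figure D4:**
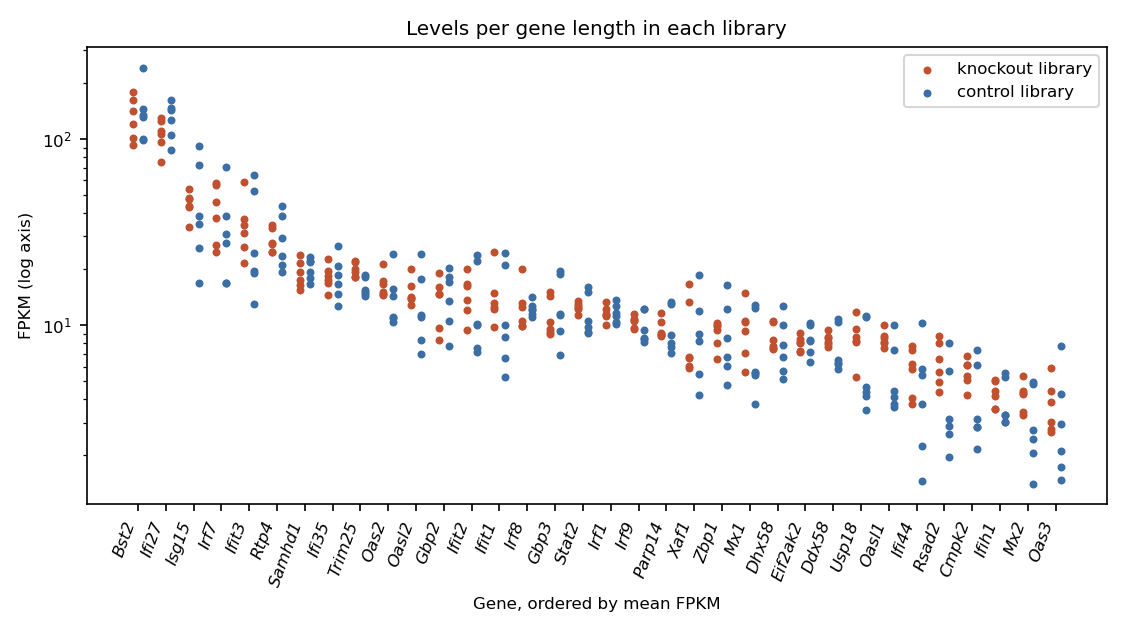
FPKM of each of the 34 genes on a log axis, as points for each library, with knockout left of control and genes in order of their mean. Bst2 and Ifi27 lead at 138 and 118 FPKM and Oas3 is lowest at 3.58 FPKM.

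Upstream of these genes, the interferon ligands were near the floor of detection. Of 10 ligand genes, 4 had no read in any library (Ifna1, Ifna4, Ifnl2 and Ifnl3) and none passed the filter on low counts. Ifnb1 had 1 read over all knockout libraries and 0 over all control libraries, and Ifng had 19 reads in knockout and 22 reads in control libraries, an average of 0.152 ± 0.104 CPM in knockout libraries and 0.173 ± 0.122 CPM in controls (SD, n = 6 each). A difference in ligand transcripts was not detectable at this depth.

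Of 12 genes for receptors and their signalling chain, 11 were tested, and the other, Ifnlr1, the type III interferon receptor subunit, had 38 reads over all knockout libraries and 15 over all control libraries. None of the 11 passed in either direction, with a median log2 fold change of -0.046. Ifnar1, a subunit of the type I receptor, averaged 96.5 ± 16.1 CPM in knockout libraries and 99.2 ± 9.42 CPM in controls, and Ifnar2, its partner, averaged 48.3 ± 9.40 CPM in knockout libraries and 49.9 ± 5.65 CPM in controls (SD, n = 6 each). Ifngr1 and Ifngr2, the interferon gamma receptor, averaged 125 ± 28.0 and 89.3 ± 8.28 CPM in knockout libraries and 123 ± 16.2 and 86.2 ± 6.04 CPM in controls. Jak1, the kinase shared by these receptors, had the smallest p of the list, with 163 ± 13.2 CPM in knockout libraries and 175 ± 9.80 CPM in controls (log2 fold change -0.10, edgeR adjusted p = 0.761). No gene of the list had an unadjusted p under 0.05, and the SD was larger in controls for 2 of the 11.

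The nucleic acid sensing pathway that turns interferon genes on was listed with 18 names, of which 16 were found and 15 tested. The names not found, Cgas and Sting1, are other names of Mb21d1 and Tmem173, which were found and tested. Trex1 had no read in any library and was not tested. None passed, and the median log2 fold change was 0.0053. Ticam1 (TRIF), the adaptor of Tlr3, was the only 1 of the 15 genes with an unadjusted p under 0.05, against 9.47% of all tested genes. It had 15.4 ± 1.87 CPM in knockout libraries and 17.8 ± 1.16 CPM in controls (log2 fold change -0.21, edgeR adjusted p = 0.441). Mavs, the adaptor of RIG-I and MDA5, averaged 37.6 ± 1.65 CPM in knockout libraries and 40.5 ± 4.60 CPM in controls, and Irf3 averaged 56.3 ± 5.72 CPM in knockout libraries and 56.0 ± 4.00 CPM in controls (SD, n = 6 each).

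A further 50 interferon-induced genes were listed beside the 34, of which 49 were tested. None passed in either direction, and the median log2 fold change was 0.065. At an unadjusted p under 0.05 there were 3 of 49 (2 higher and 1 lower), against 9.47% of all tested genes (3.79% higher and 5.68% lower). Their order over libraries was counted in the same way. The SD was larger in controls for 42 of 49, against 39.9% of all tested genes. Control 3 or 4 was the highest control for 45 of 49, against 28.7%. Library 1 or 2 was the highest knockout for 42 of 49, against 31.9%. The low end was less alike. Control 1 or 6 was the lowest control for 34 of 49, against 37.2%, and control 5 for 11. Knockout 6 was the lowest knockout for 11 of 49, against 24.8% of all genes and 22 of the 34 members. Their median deviation from the control mean was 0.48 in control 3 and 0.35 in control 4, and -0.27 in controls 1 and 6. The smallest p was that of Apol9b, an apolipoprotein L gene, which had 4.26, 5.97 and 7.53 CPM in knockout libraries and 1.75, 2.42 and 5.83 CPM in control libraries (log2 fold change 0.93, SE 0.29, edgeR adjusted p = 0.199).

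The genes most tied to interferon gamma, which encode guanylate-binding proteins, immunity-related GTPases, chemokines and antigen-processing proteins, were listed with 31 names, and 29 were tested. None passed, and the median log2 fold change was 0.034. The SD was larger in controls for 19 of 29, against 39.9% of all tested genes. An unadjusted p under 0.05 was found for 6 of 29 (3 higher and 3 lower), against 9.47% of all tested genes (3.79% higher and 5.68% lower). Gbp9, a guanylate-binding protein, had 40.4, 45.4 and 48.6 CPM in knockout libraries (lowest, median and highest), against 26.5, 31.4 and 41.6 CPM in control libraries. Its knockout values lay above 5 of the 6 controls. Gbp9 had a log2 fold change of 0.48 (SE 0.11, edgeR quasi-likelihood adjusted p = 0.0534), and the adjusted p ran from 0.00213 to 0.136 over the alternative settings. Gbp9 passed with DESeq2, RLE or upper quartile scaling, FPKM or no filter, with the replicate block, or without control 1, and Apol9b passed with DESeq2 and without control 3. Gbp8, whose locus overlaps that of Gbp9, averaged 5.73 ± 1.02 CPM in knockout libraries and 3.25 ± 1.13 CPM in controls (SD, n = 6 each, log2 fold change 0.82, edgeR adjusted p = 0.0939), and passed with DESeq2, with limma-voom and without control 1. Because the loci overlap and the genes are close paralogs, the reads of Gbp8 and Gbp9 are uncertain. Not every guanylate-binding gene was higher. Gbp6 had 2.56 to 4.26 CPM in knockout and 3.57 to 7.61 CPM in control libraries, with 3 controls above every knockout. Cxcl10, the chemokine that draws T cells, averaged 19.6 ± 3.91 CPM in knockout libraries and 16.8 ± 10.4 CPM in controls, and Cxcl9 averaged 18.1 ± 5.96 CPM in knockout libraries and 28.3 ± 16.2 CPM in controls. The proteasome activator genes Psme1 and Psme2 were among the 3 with an unadjusted p under 0.05 and lower values, at log2 fold changes of -0.22 and -0.22 (edgeR adjusted p = 0.526 and 0.440).

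**Figure D5:**
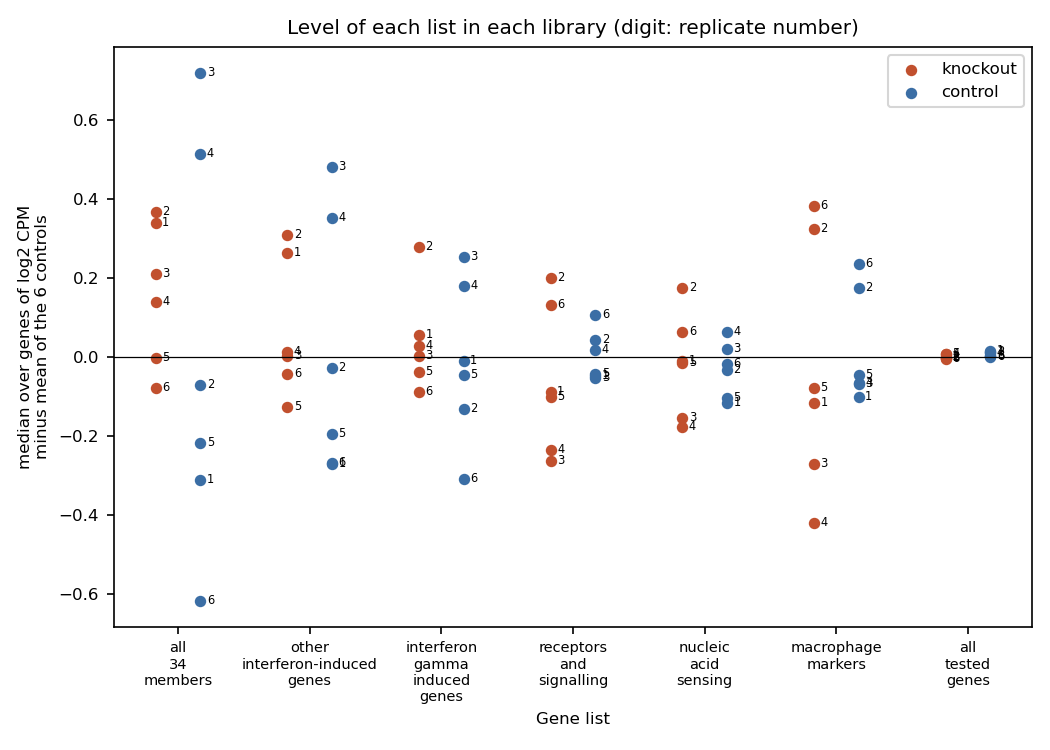
Median over the genes of each list of log2 CPM minus the mean of the 6 controls (vertical axis), for each knockout library (left) and control library (right), with the replicate number beside each point. For the 34 genes, controls 3 and 4 lie at 0.72 and 0.51 and control 6 at -0.62, whereas for macrophage markers the same 3 libraries lie at -0.068, -0.066 and 0.23.

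Markers of immune cells, which respond to and make interferon, were measured beside these genes. Summed macrophage markers were 4290, 5070 and 6963 CPM in knockout libraries (lowest, median and highest), against 5643, 5970 and 6990 CPM in control libraries, and none of the 6 genes passed the test. Controls 3 and 4, the high libraries for the 34 genes, had 5643 and 6519 CPM of macrophage markers, the lowest and the next to highest of the 6 controls. Lyz2 makes up most of this sum, and neither library was the highest control for any of the 6 macrophage genes. Markers of T and NK cells summed to 26.8, 37.7 and 54.2 CPM in knockout libraries and 14.9, 21.2 and 33.998 CPM in control libraries. Their log2 fold change was positive for 10 of 10, against 49.5% of all tested genes, with none past the threshold. An unadjusted p under 0.05 was found for 5 of 10, against 9.47% of all tested genes. Markers of plasmacytoid dendritic cells, a main source of type I interferon, summed to 5.55, 6.12 and 7.74 CPM in knockout and 5.62, 9.23 and 14.7 CPM in control libraries. Of this list 3 of 4 genes were tested, with a negative log2 fold change for 3 of 3 (median -0.58), an unadjusted p under 0.05 for 2 (Siglech and Klk1) and none past the threshold. The same shares of all tested genes apply here. Genes of a list share the same libraries, so these counts carry no p. Some of these markers were low, such as Cd3d, which averaged 1.18 CPM in knockout and 0.61 CPM in control libraries, and Klk1, at 1.09 and 1.94 CPM. Neutrophil markers summed to 30.6 to 58.0 CPM in knockout and 26.2 to 55.4 CPM in control libraries. The neutrophil marker Ly6g had 1 read in knockout and 0 in control libraries. Dendritic cell markers summed to 54.8 to 121 CPM in knockout and 63.8 to 112 CPM in control libraries, B cell markers to 3.49 to 5.56 CPM in knockout and 2.62 to 5.81 CPM in control libraries, and endothelial markers to 162 to 285 CPM in knockout and 209 to 292 CPM in control libraries, with none past the threshold. The part of these cell types in the spread of the 34 genes was not tested. Adipocyte markers summed to 409, 957 and 1664 CPM in knockout and 2359, 2901 and 3994 CPM in control libraries. Of these 6 genes, 1 (Fabp4) passed as lower, against 0.75% of all tested genes. The log2 fold change was negative for 6 of 6 (median -1.60), where 49.5% of all tested genes were positive. An unadjusted p under 0.05 with lower values was found for 5 of 6, against 5.68% of all tested genes. For Adipoq, Plin1, Fabp4 and Cidec every control lay above every knockout. FAP markers summed to 663 to 1067 CPM in knockout and 1002 to 1297 CPM in control libraries. Of these 6 genes, 1 (Col15a1) passed as lower, against 0.75% of all tested genes. The log2 fold change was negative for 5 of 6 (median -0.37). An unadjusted p under 0.05 with lower values was found for 3 of 6, against 5.68% of all tested genes.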

How the data were processed

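Per the submitters' processing notes, reads were trimmed with fastp, aligned with HISAT2 2.0.5 to GRCm38 (mm10) and counted with featureCounts. The notes and labels do not state the strand setting or which library type, directional or not, was made. The authors deposited raw read counts per gene and FPKM per gene for 6 knockout and 6 control libraries, with 15716056 to 29790720 assigned reads each. From the deposited counts, edgeR 4.0.16 in R 4.3.3 was run with TMM scaling, the default expression filter (minimum count 10, minimum total 15) and the robust quasi-likelihood test of knockout against control. The p-values were Benjamini-Hochberg adjusted over 16393 genes with a threshold of 0.05. Log2 CPM used a prior count of 2. The authors' FPKM values served for levels between genes and, with a pseudocount of 1 on the log2 scale and limma 3.58.1, as an alternative. Other alternatives were other scalings, DESeq2 1.42.0, limma-voom (always with sample quality weights), no filter, a replicate block and leaving out each library. The procedure was tested on simulated data. Members and lists were chosen with earlier results of these data known. Values of both groups were given, by role, for the member with the highest FPKM, the smallest p or the largest range, for Pparg, ligands and receptors, and for the smallest p of each other list. Other pathway genes named (Mavs, Irf3, Gbp6, Gbp8, Cxcl9, Cxcl10, Psme1 and Psme2) were chosen after their values were seen. An item withheld for evaluation is not reported here.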

Additional observations from a re-analysis of the deposited data

How the results depend on the processing

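Of 646 fits of a single member under 19 alternatives, 587 kept their direction and side of the threshold. The number of the 34 genes past the threshold was 0 under every alternative except DESeq2 (1, Trim25) and the fit without control 3 (1, Oasl1), so it ran from 0 to 1 when libraries were left out. At an unadjusted p under 0.05 it was 2 to 7 of 34 when libraries were left out, the highest without control 3, where 8.31% of all genes were called. The share of all genes in these fits ran from 7.59% (without knockout 3) to 11.1% (without knockout 2). With the replicate block it was 4 of 34 members, against 11.6% of all genes. The median log2 fold change of the 34 genes ran from 0.019 without control 6 to 0.24 without control 3. Over all genes the call count of 131 became 399 with DESeq2, 389 with limma-voom, 236 with the replicate block, and 6 (without knockout 3) to 216 (without knockout 2) when libraries were left out. In the other lists the count of 0 became 3 with DESeq2 (Gbp9, Gbp8 and Apol9b), 1 with limma-voom (Gbp8), and 1 (Gbp9) with RLE scaling, upper quartile scaling, no filter, the block and FPKM, and it ran from 0 to 2 when libraries were left out. Pparg kept its direction, at -1.12 without the filter (edgeR adjusted p above 0.05) and at -1.32 to -1.0015 when libraries were left out. In 8 of 12 of these the edgeR adjusted p was above 0.05, so the call was lost.

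Same-numbered libraries correlated by -0.13 to 0.46 in their deviations from the group means, and not every pair was above 0.1, so the numbers were not taken as pairs. Direction turned for 14 members, and the cause was not tested. Their main log2 fold changes ran from -0.10 for Bst2 to 0.20 for Ifit1. Ifit1 turned only without knockout 2, and Oas3, at 0.16 in the main fit, only without knockout 1. With upper quartile scaling Irf1 was 0.0048 and Parp14 0.0068, and with limma-voom Irf8 was -0.13. With the replicate block Zbp1 was 0.086, Irf8 -0.0072, Isg15 0.14, Ifi35 0.0088, Rtp4 0.013 and Parp14 0.028. With FPKM Zbp1 was 0.081, Isg15 0.16, Ifi35 0.017, Rtp4 0.021 and Parp14 0.030. Leaving out libraries gave ranges of -0.21 to 0.11 for Bst2, -0.22 to 0.027 for Gbp2, -0.11 to 0.12 for Ifi35, -0.022 to 0.49 for Ifit1, -0.018 to 0.35 for Ifit2, -0.095 to 0.43 for Ifit3, -0.057 to 0.038 for Irf1, -0.14 to 0.11 for Irf8, -0.24 to 0.24 for Isg15, -0.016 to 0.59 for Oas3, -0.086 to 0.10 for Parp14, -0.14 to 0.11 for Rtp4, -0.32 to 0.24 for Xaf1 and -0.15 to 0.23 for Zbp1. Depth limits the ligand genes, which had too few reads to test.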
